A study of Mus musculus with 9 samples.

Results

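The miR-26 family is represented in mouse liver by 2 guide strands, mmu-miR-26a-5p and mmu-miR-26b-5p (miR-26a-5p and miR-26b-5p below), and their levels were followed across a control, a high fat diet and a metformin group. Both were taken by name from the miRNA arrays of the study and are 2 of the 1881 mouse miRNAs that the array design lists. Each of the 9 arrays was hybridised with liver RNA pooled from 4 male C57BL/6J mice aged 20 weeks, with 3 arrays in each group. The control mice, 3 weeks old at the start, were kept on normal chow for 17 weeks, and no gavage is named for them. The high fat diet mice ate chow with 45% of its energy as fat for the same 17 weeks and were given saline by gavage for the last 5 weeks. The metformin mice ate the same high fat diet and were given metformin, a biguanide used against type 2 diabetes, at 3 mg per kg per day for those 5 weeks, from 15 weeks of age and after 12 weeks of the diet. A pool shows no spread between single mice, so all errors and p-values below measure the spread between pools and arrays.

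MicroRNAs are short RNAs that guide Argonaute proteins to partly complementary sites in messenger RNAs, chiefly through the seed near their 5′ end, and thereby lower translation and stability of those messages. miR-26a is among the miRNAs studied in hepatic insulin sensitivity and lipid metabolism: it was reported to fall in the liver of obese mice and people, and raising it in mouse liver was reported to improve insulin sensitivity and to lower glucose output and lipid synthesis. The genes of the family lie in introns of the Ctdsp genes, which encode small phosphatases that act on the C-terminal domain of RNA polymerase II.

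The mature sequences, from RefSeq, are printed because they set which of the family's RNAs an array can tell apart. Bases 2 to 8, the seed, are in capitals, and the sequences run 5′ to 3′.
miR-26a-5p: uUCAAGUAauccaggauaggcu
miR-26b-5p: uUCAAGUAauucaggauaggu
Both carry the seed UCAAGUA, which no other of the 1679 mature mouse names in that table has, so the family as defined by its seed is these 2 RNAs. miR-6371 shares bases 2 to 7 with them but not base 8. The members are identical over their first 10 bases and at 19 of the 21 positions they can be compared at. They differ by the substitutions C11U and C21U, given from miR-26a to miR-26b with positions counted from the 5′ end, and miR-26a-5p (22 bases) has 1 more base at its 3′ end than miR-26b-5p (21 bases). The sequences of the array probes were not used here, so how much of one member's RNA a probe of the other captures was not assessed.

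The precursor hairpins are printed with the 5p arm in capitals, because they show that 2 genes give the same miR-26a-5p. Coordinates are those of GRCm38.p6, and all 3 lie on the plus strand.
Mir26a-1: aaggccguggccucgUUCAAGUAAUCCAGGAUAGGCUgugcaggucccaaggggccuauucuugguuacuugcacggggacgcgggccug
Mir26a-2: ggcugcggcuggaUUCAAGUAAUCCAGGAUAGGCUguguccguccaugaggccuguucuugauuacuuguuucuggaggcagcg
Mir26b: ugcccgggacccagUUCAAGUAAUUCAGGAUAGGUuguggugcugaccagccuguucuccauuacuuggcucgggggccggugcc
Mir26a-1 lies at chr9:119031796-119031885 within Ctdspl, Mir26a-2 at chr10:126995530-126995613 within Ctdsp2, and Mir26b at chr1:74394310-74394394 within Ctdsp1. A level of miR-26a-5p is therefore the sum over the Mir26a-1 and Mir26a-2 loci. The opposite arms could have told the loci apart, but the scanner software called miR-26a-1-3p, miR-26a-2-3p and miR-26b-3p detected on 0 of 9 arrays. For the levels below, a probe counts as detected on an array where the software marked more than 50% of its spots as well above background. For the 3 opposite arms the highest share of used spots well above background on any array was 11.1%, 9.09% and 0%, respectively, so only a bound below detection exists for them.

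On the 9 arrays of the study, 6 have strips of adjacent columns at one or both edges. There many spots of probes that are otherwise bright carry almost no signal. These strips are not spread evenly over the groups. They held 41.1% to 43.8% of the spots on the 3 control arrays, 53.6% and 33.6% on high fat diet replicates 1 and 3, and 31.1% on metformin replicate 2. High fat diet replicate 2 and metformin replicates 1 and 3 had none. Levels below leave these columns out, and the comparisons of the members are also given with all spots kept. Once scaled, arrays of one group correlated at 0.987 to 0.998 over the tested miRNAs and arrays of different groups at 0.977 to 0.995, as a description of arrays that share one design. Per array, 136 to 190 miRNAs were detected by the software. Of the arrays, 8 lay on 1 slide and control replicate 3 on another; on the first slide the 3 high fat diet arrays and metformin replicate 1 shared a row, and control replicates 1 and 2 and metformin replicates 2 and 3 shared the other. For the liver origin of the RNA a list of 5 hepatocyte miRNAs was read, of which 5 were tested. miR-122-5p, the dominant hepatocyte miRNA, lay between 6.43 and 6.74 on the log2 scale on the 9 arrays. The others lay at 2.90 to 3.29 (miR-192-5p), 0.58 to 1.14 (miR-194-5p), -0.28 to 0.46 (miR-148a-3p) and -4.42 to -3.68 (miR-122-3p). The last was detected on 8 of the 9 arrays.

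Each member has 2 probes of 15 spots each, so 540 spots in all carry the family on the 9 arrays. Of these, 160 lay in a strip: 78 of 180 on the control arrays, 61 of 180 on the high fat diet arrays and 21 of 180 on the metformin arrays. Of the 160, 104 (65.0%) were below 10% of the median of the same probe's used spots on that array. The spread of repeated spots was taken outside the strips. For the brighter probe of miR-26a-5p the coefficient of variation over the used spots of an array was 4.68% to 12.9% with a median of 5.55%, and for that of miR-26b-5p it was 3.2% to 15.4% with a median of 5.87%. On the 3 arrays without strips these values were 4.68% to 5.63% and 3.2% to 4.63%. The second probe of miR-26a-5p had 3.48% to 28.8% (median 6.89%), with up to 19.4% on an array without strips, and that of miR-26b-5p 3.78% to 11.2% (median 6.38%).

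**Figure D1:**
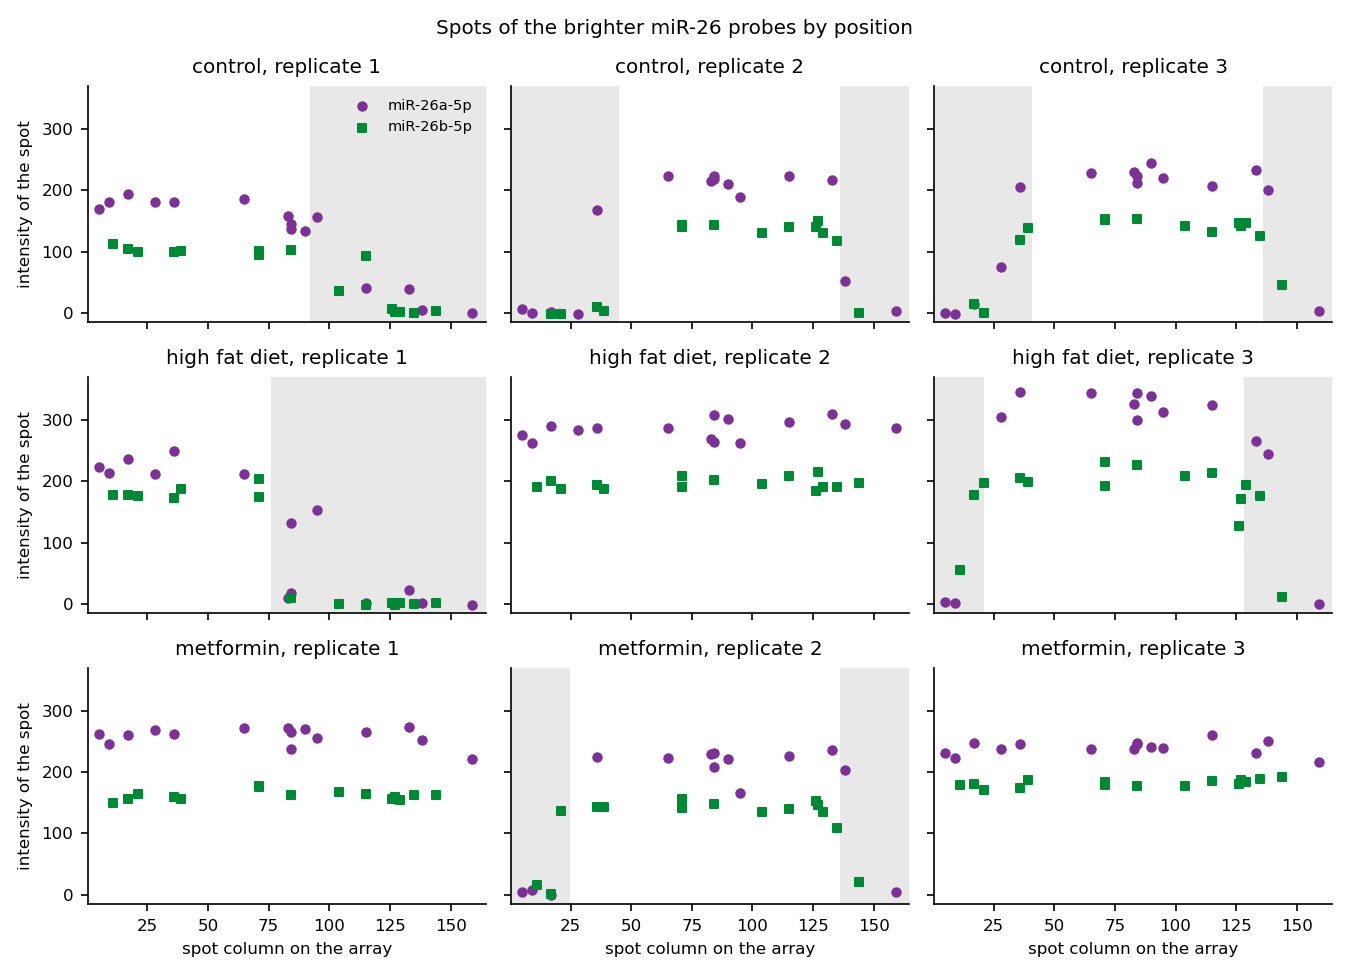
Intensity of each spot of the brighter probe of miR-26a-5p (circles) and miR-26b-5p (squares) against its column on the array, 1 panel per array, with the columns left out shaded grey; spots with a software mark for a non-uniform pixel spread are not drawn. Inside the shading many spots sit near 0, but not all. For miR-26b-5p the spots there had a median of 176 on high fat diet replicate 3 and 82.3 on control replicate 3. The used spots of these arrays had 202 and 147. On the other arrays with shading the median inside it was 0.80 to 18.6. High fat diet replicate 2 and metformin replicates 1 and 3, which have no shading, hold their level across all columns.

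Both members were detected on all 9 arrays. The median intensity of the used spots, before any scaling, was 175, 218 and 226 for miR-26a-5p in control replicates 1 to 3, 218, 287 and 326 in the high fat diet replicates and 262, 224 and 239 in the metformin replicates. For miR-26b-5p it was 101, 140 and 147 in the controls, 177, 193 and 202 in the high fat diet group and 162, 143 and 181 in the metformin group. The overall brightness of the arrays also differed: their 75th percentile over detected probes ran from 193 to 323. The raw values were therefore divided by that percentile. The log2 of the quotient is called the level below: 0 is a probe at the array's 75th percentile.

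The level of miR-26a-5p differed little between the 9 arrays. It was -0.14, -0.022 and 0.0038 in the controls, -0.020, 0.040 and 0.010 in the high fat diet group and 0.061, -0.045 and 0.012 in the metformin group. Control replicate 1 was the lowest and metformin replicate 1 the highest, and all 3 groups overlapped. The group means were -0.052 ± 0.075, 0.010 ± 0.030 and 0.0093 ± 0.053 (SD, n = 3 each), in the order control, high fat diet and metformin, with the metformin and high fat diet means closer to each other than the SD of either group and the control mean lowest by less than its own SD. The SD over the 9 arrays was 0.057, and 0 of the 143 miRNAs tested were less variable, against a median SD of 0.18. This small spread has to be read with the place of the probe, which lies almost at the value used for scaling: it was between the 73.3rd and the 75.9th percentile of the 187 scaling probes and at 90.9% to 104% of the scaling value on every array. Each array was also scaled to the geometric mean of the same scaling probes without those of the family. The SD of miR-26a-5p was then 0.070, and 2 miRNAs of 143 were less variable against a median of 0.17. With median scaling the SD was 0.096 (9 of 143 less variable, median 0.19), and with all spots kept it was 0.14 (3 of 139 less variable, median 0.30). The group means with all spots kept were -0.66 ± 0.12, -0.75 ± 0.090 and -0.59 ± 0.20 (SD, n = 3 each), in the same order.

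miR-26b-5p was read lower than miR-26a-5p on every array, although levels of different probes cannot be set against each other as amounts. Its level was -0.93, -0.66 and -0.62 in the controls, -0.32, -0.53 and -0.68 in the high fat diet group and -0.63, -0.70 and -0.39 in the metformin group. The group means were -0.74 ± 0.17, -0.51 ± 0.18 and -0.57 ± 0.16 (SD, n = 3 each). Control replicate 1 was the lowest array and high fat diet replicate 1 the highest, and the groups overlapped, since high fat diet replicate 3 lay below control replicates 2 and 3. Its SD over the 9 arrays was 0.18, close to the median miRNA, with 70 of 143 less variable. Its group means with all spots kept were -1.21 ± 0.32, -1.21 ± 0.12 and -1.0 ± 0.11 (SD, n = 3 each).

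**Figure D2:**
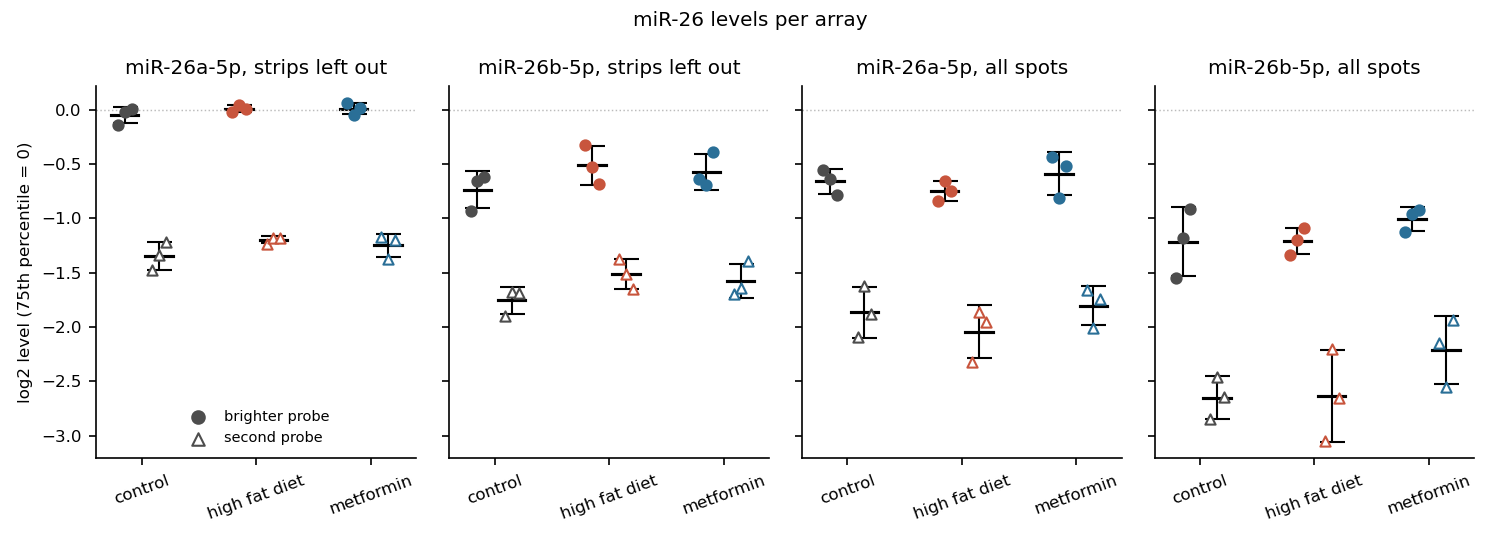
Level of miR-26a-5p and miR-26b-5p on each array, in log2 units relative to the array's 75th percentile, with the strips left out (left pair of panels) and with all spots kept (right pair). Filled circles are the brighter probe, open triangles the second probe, and bars give the mean and SD of 3 arrays. With the strips left out, the brighter probe of miR-26a-5p stays near 0 in all groups. That of miR-26b-5p lies between -0.93 and -0.32, with overlapping groups. The second probes lie lower, at -1.48 to -1.17 for miR-26a-5p and -1.90 to -1.38 for miR-26b-5p.

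The second probe of each member was dimmer. For miR-26a-5p it read -1.48, -1.34 and -1.22 in the controls, -1.23, -1.18 and -1.18 in the high fat diet group and -1.17, -1.37 and -1.20 in the metformin group. For miR-26b-5p it read -1.90, -1.68 and -1.69, then -1.38, -1.52 and -1.65, then -1.69, -1.64 and -1.40, so that here the 3 high fat diet arrays lay above the 3 controls, while for miR-26a-5p high fat diet replicate 1 lay below control replicate 3. The difference between a member's 2 probes had an SD over the 9 arrays of 0.057 for miR-26a-5p and 0.046 for miR-26b-5p. With all spots kept, the same SDs were 0.17 and 0.30, so the distance between the probes of one RNA varied more when the strips stayed in.

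The first comparison asks whether the high fat diet went with another level of miR-26 in liver. Neither member passed the test. miR-26a-5p was 1.04-fold of the control level (log2 difference 0.062, SE 0.082, 95% interval -0.12 to 0.24), with an adjusted p of 0.628 in limma with Benjamini-Hochberg adjustment over all 143 miRNAs tested. miR-26b-5p was 1.17-fold of the control level (log2 difference 0.22, SE 0.13, 95% interval -0.062 to 0.51), with an adjusted p of 0.222 in the same limma fit. In this comparison 20 miRNAs passed at an adjusted p under 0.05, which is 14.0% of those tested; that count was 40 without control replicate 3 and 6 without high fat diet replicate 1, with no member among the calls in either. The members' own intervals bound a fall: the lower end for miR-26a-5p is 7.94% below the control level and that for miR-26b-5p 4.20% below it. These bounds hold for this reading of the spots and this scaling, and with all spots kept they were 26% and 24.1%.

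Among all tested miRNAs the members were not at the edge of the distribution. The median difference was 0.027, 28 miRNAs had a larger difference than miR-26b-5p and 63 a larger one than miR-26a-5p. With all spots kept, the median over 139 tested miRNAs moved to -0.22, miR-26a-5p stood at -0.086 (SE 0.16, adjusted p = 0.765, limma) and miR-26b-5p at 0.0057 (SE 0.18, adjusted p = 0.999, limma), and 9 miRNAs passed, 6.47% of those tested. Under the geometric mean scaling the differences were 0.072 and 0.23, with adjusted p-values of 0.533 and 0.157 (limma). There, and with its second probe (0.24, adjusted p = 0.163, limma), the 3 high fat diet arrays lay above the 3 control arrays for miR-26b-5p, as groups did not overlap for 37.1% of the tested miRNAs in the comparison with strips left out.

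The row of the slide was not balanced in this comparison, since no row held both control and high fat diet arrays. With the row as a block over the 8 arrays of the first slide, miR-26a-5p stood at 0.012 (95% interval -0.37 to 0.39, adjusted p = 0.956, limma) and miR-26b-5p at 0.37 (95% interval -0.20 to 0.95, adjusted p = 0.364, limma). The lower ends of these wider intervals allow a fall of 22.5% for miR-26a-5p and 13.2% for miR-26b-5p. The part of the row in the differences was not tested apart from this block, which links the rows only through the metformin arrays.

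The second comparison asks whether metformin in mice kept on the high fat diet went with a change of miR-26. miR-26a-5p had the same level in both groups to within the error (log2 difference -0.00079, SE 0.082, 95% interval -0.18 to 0.18, adjusted p = 0.999, limma). miR-26b-5p differed by -0.062 (SE 0.13, 95% interval -0.35 to 0.22, adjusted p = 0.868, limma). Over all tested miRNAs 2 passed, 1.40%, and the median difference was -0.059. With all spots kept, both members were higher in the metformin group, by 0.16 and 0.20 with an adjusted p of 0.723 each (limma), beside a median of 0.16 over all tested miRNAs; in that limma fit 0 of 139 passed (0.00%), and 15 had an unadjusted p under 0.05. Within the row that held both groups, metformin replicate 1 was 0.051 above the mean of the 3 high fat diet arrays for miR-26a-5p and stood at -0.12 against it for miR-26b-5p. On the 3 arrays without strips, the high fat diet array read 0.040 and the metformin arrays 0.061 and 0.012 for miR-26a-5p, and for miR-26b-5p the high fat diet array read -0.53 between the metformin values of -0.63 and -0.39.

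The third comparison sets the metformin group against chow. miR-26a-5p differed by 0.061 (SE 0.082, 95% interval -0.12 to 0.24, adjusted p = 0.690, limma) and miR-26b-5p by 0.16 (SE 0.13, 95% interval -0.12 to 0.45, adjusted p = 0.494, limma). The 2 miRNAs that passed here were 1.40% of those tested, 1 higher and 1 lower (0.699% each), and neither was a member. With all spots kept the differences were 0.070 and 0.21, with adjusted p-values of 0.936 and 0.651 (limma), and 0 of 139 miRNAs passed in limma (0.00%) beside 15 at an unadjusted p under 0.05. Under the geometric mean scaling miR-26a-5p was at 0.098 (adjusted p = 0.413, limma), with all 3 metformin arrays above all 3 control arrays; in the first reading groups did not overlap for 25.9% of the tested miRNAs. Within the row that held both groups, the mean of the 2 metformin arrays was above that of the 2 control arrays. It was 0.063 above for miR-26a-5p and 0.25 above for miR-26b-5p, with overlapping arrays for both. Under 1 scaling the members did pass: when each array was divided by the 75th percentile over all its probes, most of which are at background, miR-26a-5p was 0.87 and miR-26b-5p 0.97 above chow (adjusted p = 0.0166 and 0.0126, limma). That scaling moved the median of all tested miRNAs to 0.80 and called 98 of 143, with 53 miRNAs above miR-26a-5p and 25 above miR-26b-5p in the difference. The 3 comparisons share their groups and are not independent of each other.

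**Figure D3:**
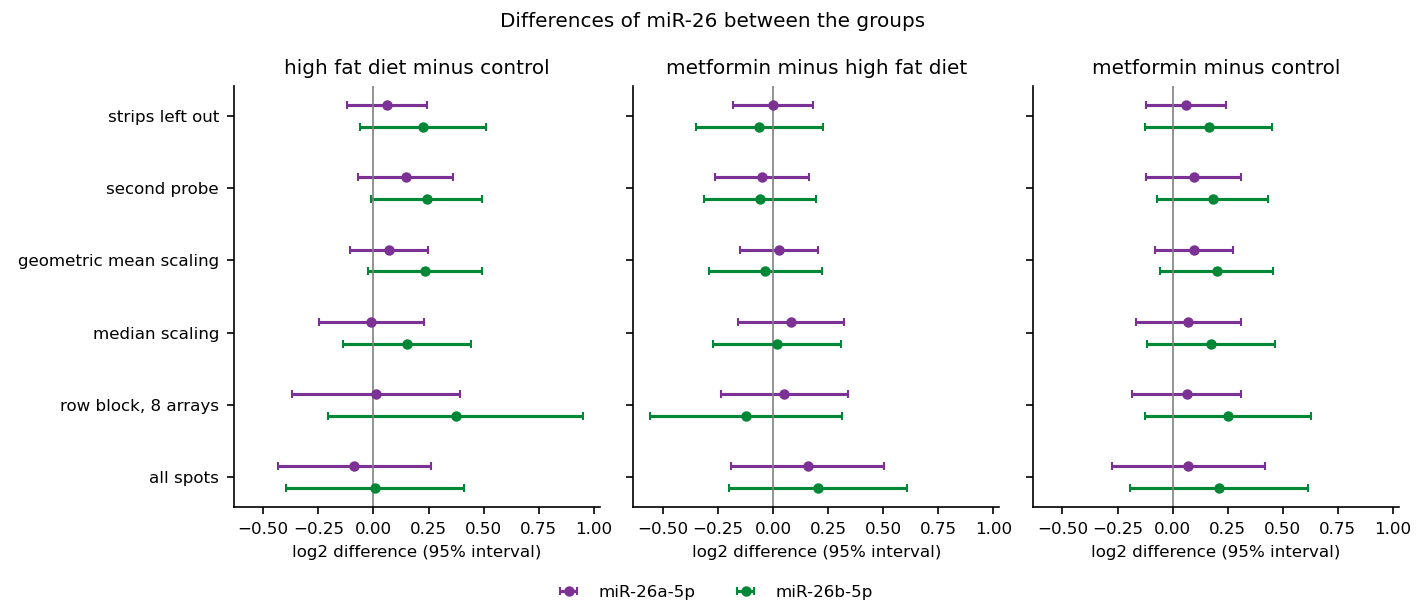
Log2 difference of miR-26a-5p (purple) and miR-26b-5p (green) between groups with its 95% interval from limma, 1 panel per comparison, under 6 ways of reading the spots or scaling the arrays. Scaling to the 75th percentile over all probes, under which 3 of the members' intervals exclude 0, is not drawn. Each interval drawn includes 0, and those with all spots kept or with the row as a block are wider than those with the strips left out.

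Within an array the scaling cancels, so the members were also compared with each other and with a pair from another family. miR-26a-5p minus miR-26b-5p was 0.79, 0.64 and 0.62 in the controls, 0.30, 0.57 and 0.69 in the high fat diet group and 0.69, 0.65 and 0.40 in the metformin group. The 3 groups overlapped: high fat diet replicate 1 and metformin replicate 3 had the smallest difference and control replicate 1 the largest. The mean difference was 0.16 smaller with the high fat diet than with chow (-0.16, two-sided exact permutation p = 0.4, n = 3 against 3), and 3 against 3 arrays cannot go below 0.1. For metformin against the high fat diet it was 0.061 (exact p = 0.6), and against chow -0.10 (exact p = 0.6). These values were -0.092, -0.047 and -0.14 with all spots kept (exact p = 0.7, 0.9 and 0.7).

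miR-103-3p and miR-107-3p, a pair reported to be raised in obese liver and to reduce insulin sensitivity, served as the second yardstick. The mean level of the miR-26 members minus that of the pair was -0.24, -0.068 and -0.12 in the controls, -0.11, -0.14 and -0.13 in the high fat diet group and -0.23, -0.15 and -0.22 in the metformin group. With the high fat diet this balance stood 0.014 from chow (exact permutation p = 0.9, n = 3 against 3). All 3 metformin arrays lay below all 3 high fat diet arrays, by 0.072 in the mean (-0.072, exact permutation p = 0.1, the smallest that 3 against 3 allow); of single miRNAs, 20.3% had groups that did not overlap in this comparison. The mean difference was -0.14 with all spots kept (exact p = 0.2) and -0.095 with the members' second probes (exact p = 0.1). Against chow the metformin group stood at -0.058 (exact p = 0.4), with overlapping arrays. That value was -0.18 with all spots kept (exact p = 0.1, the smallest possible), with all 3 metformin arrays below all 3 controls. With the strips left out, 25.9% of single miRNAs had groups that did not overlap in this comparison. Adjusted over these 6 within-array tests by Benjamini-Hochberg, the exact p-values ran from 0.6 to 0.9, and none could reach 0.05.

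**Figure D4:**
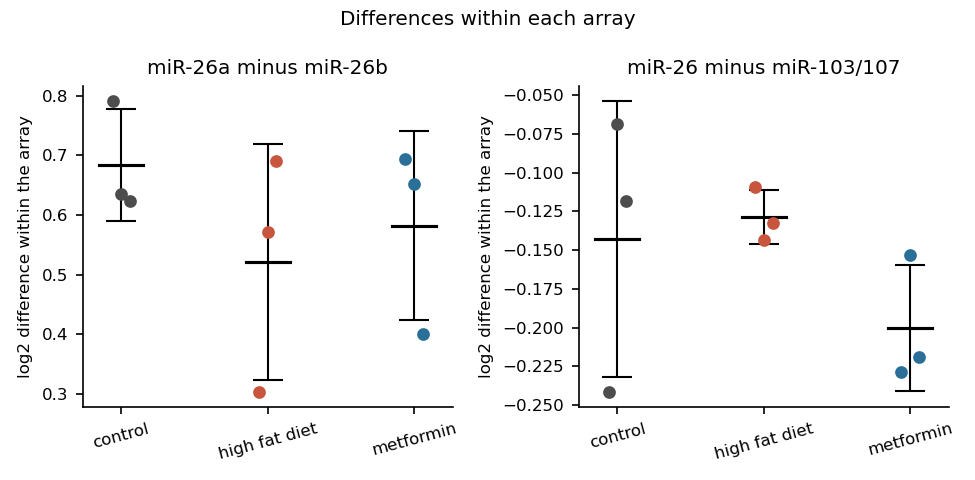
Log2 difference within each array between miR-26a-5p and miR-26b-5p (left) and between the mean of the miR-26 members and the mean of miR-103-3p and miR-107-3p (right), with the mean and SD of 3 arrays; the vertical axes differ and do not start at 0. On the left all groups overlap, and on the right the metformin arrays, at -0.23 to -0.15, lie below the high fat diet arrays, at -0.14 to -0.11, while the controls span both.

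The miRNAs whose levels ran closest to each member over the 9 arrays were found by the SD of their log2 difference to it, in which a scaling factor cancels except for values at the floor. The points share arrays, spots of one design and the filter on strips, and the order is a description. For miR-26a-5p the closest of 142 were miR-103-3p (SD 0.065), miR-30a-3p (0.066) and let-7c-5p (0.067), against a median of 0.18. miR-26b-5p came only in place 56 (0.15), and in place 57 under the geometric mean scaling. For miR-26b-5p the closest were miR-194-5p (0.068), miR-106b-5p (0.083) and miR-15b-5p (0.085), against a median of 0.19, and miR-26a-5p came in place 42. The other member was thus not the nearest neighbour of either one. The 3 neighbours of miR-26a-5p differed between the high fat diet and chow by -0.0081 to 0.057, and those of miR-26b-5p by 0.22 to 0.36, none with an adjusted p under 0.1 (limma, lowest 0.104, for miR-15b-5p).

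Of 24 miRNAs listed for a reported part in insulin action or glucose handling other than miR-26, 15 were tested. With the high fat diet 1 rose and 0 fell, against 4.20% higher and 9.79% lower over all tested miRNAs. The one was miR-34a-5p, a p53 target that lowers Sirt1: its level was between -2.02 and -1.84 on the control arrays and between -0.91 and -0.27 on the high fat diet arrays, a difference of 1.37 (adjusted p = 0.000265, limma), and with all spots kept 0.84 (adjusted p = 0.0464, limma), where 0.719% of all tested miRNAs rose. Under the row block it was at 1.27 and no longer passed (adjusted p = 0.0764, limma), as with the software's total signal (adjusted p = 0.0773), in the deposited table (0.362) and without a filter (0.216). Of the other 14, 13 had a positive difference without passing, and the median of the list was 0.22 beside 0.027 over all tested miRNAs, of which 54.5% were positive. With all spots kept, 7 of 14 were positive, against 26.6% of all tested miRNAs, and the median was 0.026 beside -0.22. With the strips left out, miR-26b-5p, at 0.22, stood at the median of the list and miR-26a-5p, at 0.062, below it. With all spots kept, both members, at 0.0057 and -0.086, lay below that of the list. miR-148a-3p, a hepatocyte miRNA with a reported part in lipid handling, was at 0.37 (adjusted p = 0.0624, limma). miR-103-3p was at 0.057 (adjusted p = 0.691, limma) and miR-107-3p at 0.20 (adjusted p = 0.172, limma).

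With metformin on the high fat diet, 0 of the 15 passed in limma, beside 13 of 143 miRNAs at an unadjusted p under 0.05, and 3 had a positive difference, against 37.1% of all tested miRNAs. The median was -0.098 beside -0.059 over all tested miRNAs. The largest differences were those of miR-34a-5p (-0.56, adjusted p = 0.126, limma) and miR-29b-3p (-0.26, adjusted p = 0.435, limma), of a family reported to act on insulin signalling. miR-34a-5p passed with the 2 groups alone (adjusted p = 0.0448, limma) and without high fat diet replicate 3 (adjusted p = 0.00657, limma), but under no other alternative. With all spots kept, 11 of 14 were positive with a median of 0.095 beside 0.16, and 81.3% of all tested miRNAs were positive. Against chow, 1 of the 15 rose in the metformin group, again miR-34a-5p (0.80, adjusted p = 0.0143, limma); with all spots kept it was at 0.63 (adjusted p = 0.203, limma), and under the row block at 0.74 (adjusted p = 0.0548, limma); normexp, the total signal, the deposited table and no filter lost the call too, with adjusted p-values of 0.0905 to 1. Without metformin replicate 1, 2 or 3 its adjusted p was 0.0702, 0.0985 and 0.0768 (limma). miR-148a-3p was at 0.29 in that comparison (adjusted p = 0.189, limma).

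Markers of other cell types of the liver were read beside the members, since in pooled tissue fewer cells of a type and less of an RNA per cell cannot be told apart. Of the erythroid list 1 of 4 was tested, miR-451a, which lay between -1.57 and -0.13 in the controls, -0.99 and -0.53 in the high fat diet group and -1.94 and -1.72 in the metformin group. Its metformin arrays lay below both other groups without passing (adjusted p = 0.158 against the high fat diet and 0.150 against chow, limma). Groups did not overlap for 20.3% and 25.9% of the tested miRNAs in these 2 comparisons. Of the leukocyte list 2 of 5 were tested, with a mean level of -3.33 to -2.96, -3.27 to -3.05 and -3.39 to -3.20 in the same order. With the high fat diet and the strips left out they went opposite ways: miR-223-3p, the myeloid marker, differed by 0.087 and miR-142a-3p by -0.13. Neither passed (adjusted p = 0.628 and 0.531, limma). With all spots kept they stood at -0.26 and -0.32 (adjusted p = 0.412 and 0.365, limma), beside a median of -0.22 over all tested miRNAs. Of the stellate and mesenchymal list 3 of 6 were tested, with a mean level of -3.59 to -3.44, -3.33 to -3.01 and -3.46 to -3.38; miR-199a-3p passed with the high fat diet (0.31, adjusted p = 0.0301, limma) but, among other alternatives, not with all spots kept (0.57, adjusted p = 0.158), under the row block (0.26, adjusted p = 0.349), with median scaling (0.23, adjusted p = 0.140) or without any 1 of the high fat diet replicates (adjusted p of 0.0677 to 0.0866). Of the endothelial list 1 of 2 was tested, miR-126a-3p, at 1.39 to 1.55, 1.65 to 1.67 and 1.43 to 1.71. Its high fat diet arrays lay above the controls, and groups did not overlap for 37.1% of the tested miRNAs in that comparison. The difference was 0.18 (adjusted p = 0.214, limma), and with all spots kept -0.42 (adjusted p = 0.518, limma). The hepatocyte list had a mean level of 1.07 to 1.5, 1.34 to 1.51 and 1.35 to 1.51, and control replicate 1, the array with the lowest level of both members, was also the lowest for it. The part of cell composition in the levels of miR-26 was not tested.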

How the data were processed

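Liver miRNA was measured on 9 single-colour Agilent mouse miRNA arrays. Intensities per spot were extracted by the authors with Agilent Feature Extraction, version 11.5.1.1 per the file headers and 10.7 per the submitters' processing notes. The authors also deposited a table of log2 values, which equals the software's total signal per miRNA on the log2 scale plus 1 constant per array (departures over 0.001 for at most 6 miRNAs), with column medians of -5.67 to -4.03; how the constants were chosen stays unknown. The members and lists were chosen with earlier results of these data known.

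Columns at an array's edge were left out in steps of 4 columns, until 2 adjacent steps each had under 10% low spots among bright probes. A spot was low if under 50% of its probe's 80th percentile on that array. Bright probes had that percentile above an intensity of 100. Some spots left out therefore still carried signal. Each probe was then summarised by the median of the spots left, apart from those marked as non-uniform, with at least 3 spots on every array (3990 of 4415 probes). This was divided by the 75th percentile, on the same array, of 187 probes detected throughout, floored at the 1st percentile of detected values (0.0406) and put on the log2 scale. The brightest probe stands for a miRNA, and miRNAs detected on all 3 arrays of a group were tested. limma 3.58.1 in R 4.3.3 fitted 3 group means with 1 spread, adjusting by Benjamini-Hochberg. No probe of a member was at the floor or saturated. The other reading, called all spots, averages all spots without outlier marks, scales by 124 probes and floors at 0.0272. Within-array differences used exact permutation tests. The finding of strips and the limma fit were tested on simulated data. Alternatives covered spots, strip rule, background, scaling, probe, filter, slide, row, pairing and each array left out. Named are the members, their opposite arms and each member's 3 nearest miRNAs. Of the insulin list, those that passed or had the 2 largest differences are named, with miR-103-3p and miR-107-3p. Of each cell type 1 marker is named, but for leukocytes both that were tested and for hepatocytes all 5. The number of arrays limits the precision. Replicate numbers were not used to pair the samples in the main fit. Same-numbered arrays correlated at -0.236 to 0.433 in their deviations from the group means. Without the differently numbered pairs beside them, these values cannot decide whether a pairing exists.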

Additional observations from a re-analysis of the deposited data

How the results depend on the processing

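No difference of a member passed the test under any of 29 alternatives per result, with 1 exception. Dividing by the 75th percentile over all probes put miR-26a-5p 0.87 and miR-26b-5p 0.97 above chow in the metformin group, with the median of all miRNAs at 0.80 (0.56 for the diet and 0.21 for metformin). For the diet, adjusted p-values ran from 0.135 to 1 for miR-26a-5p and 0.0767 to 1 for miR-26b-5p, which was positive under all 29.

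Signs of small differences turned, and the cause was not tested. For miR-26a-5p the diet difference became -0.086 with all spots, -0.0091 with median scaling, -0.065 in the deposited table and -0.027 with only the columns kept on every array, which leave 1 spot of its probe. Its metformin difference became 0.16 with all spots, 2.27e-05 and 0.000165 with strip rules at 5% and 20%, 0.0047 with normexp on spot medians, 0.27 with the percentile over all probes, 0.081 with median scaling, 0.055 with quantile normalization, 0.051 with the row block and 0.026 with the geometric mean. Against chow it became -0.035 with the software's total signal, -0.15 in the deposited table and -0.069 with the common columns. For miR-26b-5p the metformin difference became 0.20 with all spots, 0.21 with the percentile over all probes, 0.020 with median scaling, 0.013 with quantile normalization and 0.017 with the total signal. Within arrays, the diet difference of miR-26 minus miR-103 and miR-107 became -0.037 with all spots, and the miR-26a minus miR-26b metformin difference -0.047 with all spots and -0.073 with the total signal and the deposited table.

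Leaving out 1 array at a time gave, for the diet, metformin and metformin against chow, 0.057 to 0.12, -0.027 to 0.026 and 0.035 to 0.11 for miR-26a-5p, and 0.16 to 0.31, -0.15 to 0.030 and 0.071 to 0.22 for miR-26b-5p. The metformin difference of miR-26a-5p turned positive without high fat diet replicate 2 or metformin replicate 2, and that of miR-26b-5p without high fat diet replicate 1 or metformin replicate 2. For miR-26 minus miR-103 and miR-107 it gave -0.035 to 0.051, -0.095 to -0.057 and -0.11 to -0.020, negative for the diet without control replicate 1. For miR-26a minus miR-26b it gave -0.25 to -0.053, -0.049 to 0.15 and -0.16 to -0.011, negative for metformin without high fat diet replicate 1.

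The limma calls among all miRNAs, 20, 2 and 2 for the diet, metformin and metformin against chow, ranged over 6 to 40, 0 to 3 and 1 to 8 with 1 array left out. The diet calls were 8, 40, 6, 7 and 13 without control replicates 1 and 3, high fat diet replicates 1 and 2 and metformin replicate 2, respectively; those for metformin were 0 without high fat diet replicate 2 (12 at an unadjusted p under 0.05) or metformin replicate 1 (10), 2 (8) or 3 (18), and 1 without control replicate 3 or high fat diet replicate 3; and those against chow were 4 and 8 without control replicates 1 and 3, and 1 without metformin replicate 1, 2 or 3. Of the diet calls 6 of 20 were higher, against 2 of 22 with median scaling, 2 of 23 with normexp and 11 of 26 with the geometric mean. For the diet they were 9 with all spots, 1 with the percentile over all probes, 0 with the total signal (24 at an unadjusted p under 0.05), 0 in the deposited table (14), 0 without a filter (45), 8 with the 2 groups alone, 40 on the first slide, that is without control replicate 3, 0 with the row block (31) and 9 on the common columns. For metformin they were 0 with all spots (15), the 20% rule (16), normexp (11), the percentile over all probes (7), the mean of probes (17), no filter (15), the row block (10), the replicate block (13) and the common columns (8), 1 with the total signal, in the deposited table and on the first slide, and 5 with the 2 groups alone. Against chow they were 0 with all spots (15), normexp (34) and no filter (31), 98 with the percentile over all probes, 4 with median scaling, 1 with the total signal, in the deposited table and on the common columns, 8 on the first slide and 5 with the row block.

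Whether same-numbered arrays share more than a number is not known. With the replicate block the limma calls were 22, 0 and 3, and the members' diet differences stayed at 0.062 and 0.22 (adjusted p = 0.663 and 0.252). The common columns and the geometric mean were chosen after seeing the data. Normexp used the median of each spot's pixels, the spot summary in these files.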
